A study of Mus musculus with 2 samples.

Results

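A set of 9 genes of the lysosome and of autophagy was followed in mouse embryoid bodies: Ctsd, Ctsb, Ctsl, Lamp1, Lamp2, Atp6v1h, Map1lc3b, Sqstm1 and Rb1cc1. They were taken by symbol from the deposited gene list, and all 9 were found among 33670 symbols. Embryoid bodies are the aggregates in which embryonic stem cells start to differentiate. Those studied here were grown from J1 cells, a male line, and were given dTAG13 or the solvent DMSO over 2 days, with 1 single-cell library for each treatment. dTAG13 is a degrader that recruits a ubiquitin ligase to proteins carrying an FKBP12 F36V tag. Tex10 stands in the study's title, and no label states which protein is tagged, whether the DMSO cells carry the same tag or how many clones were used. The compound acts on protein, so transcript counts do not show whether the target was lost. Because a treatment is represented by a single library, the intervals given are 95% counting intervals, no test was possible, and no difference could be set against the spread between cultures.

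Lysosomes are acidic compartments that digest material from the cell surface and from the cytoplasm. Cathepsins are their proteases, LAMP proteins line their membrane, and the V-ATPase pumps in the protons on which the enzymes depend. In autophagy the ULK1 complex starts a membrane that is decorated with lipid-bound LC3, receptors such as p62 tether cargo to LC3, and the closed vesicle then fuses with the lysosome. Many lysosomal genes are known targets of TFEB and its relatives, which bind the CLEAR element, a motif with CACGTG as its core. Pluripotent stem cells use autophagy to turn over proteins and mitochondria.

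The promoters of the 3 members past 1.5-fold and of Map1lc3b, the 1 lower member, are shown because genes that differ together can be compared there for the CLEAR core. Each run is the 250 bases before the RefSeq start site (GRCm38.p6), 5′ to 3′ on the gene's strand, with CACGTG in capitals. Ctsd lies at chr7:142387828-142388077 (minus strand), Lamp1 at chr8:13158911-13159160 (plus strand), Sqstm1 at chr11:50210821-50211070 (minus strand) and Map1lc3b at chr8:121590188-121590437 (plus strand).
Ctsd: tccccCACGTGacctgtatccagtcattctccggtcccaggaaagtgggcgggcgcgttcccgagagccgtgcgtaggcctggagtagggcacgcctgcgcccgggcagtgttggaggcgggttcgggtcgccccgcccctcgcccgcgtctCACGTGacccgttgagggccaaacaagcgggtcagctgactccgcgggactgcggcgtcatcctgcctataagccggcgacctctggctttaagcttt
Lamp1: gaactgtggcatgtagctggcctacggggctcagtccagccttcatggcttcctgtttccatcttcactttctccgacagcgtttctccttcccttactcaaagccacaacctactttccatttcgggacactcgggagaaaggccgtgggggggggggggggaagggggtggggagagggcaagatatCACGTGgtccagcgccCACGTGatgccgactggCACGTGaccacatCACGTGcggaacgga
Sqstm1: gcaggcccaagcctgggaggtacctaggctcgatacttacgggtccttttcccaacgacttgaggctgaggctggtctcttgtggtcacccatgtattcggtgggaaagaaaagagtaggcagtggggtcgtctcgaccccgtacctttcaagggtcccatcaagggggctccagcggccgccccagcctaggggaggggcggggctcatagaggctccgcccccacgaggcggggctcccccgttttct
Map1lc3b: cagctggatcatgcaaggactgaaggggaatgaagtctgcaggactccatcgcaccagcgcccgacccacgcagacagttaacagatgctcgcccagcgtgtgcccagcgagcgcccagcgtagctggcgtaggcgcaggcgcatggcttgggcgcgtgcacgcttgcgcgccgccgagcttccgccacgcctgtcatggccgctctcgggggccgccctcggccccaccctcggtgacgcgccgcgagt

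The Lamp1 window held CACGTG 4 times, beginning 61, 45, 28 and 15 bases before the start site. The Ctsd window held it 2 times, 245 and 98 bases before the start site, and the nearer copy lay inside TCACGTGA. In the windows of Sqstm1 and Map1lc3b these letters did not occur. Of 6 members with an entry in the RefSeq table, Ctsl also held 1 copy, 236 bases upstream, and Lamp2 held none. Man2b1, the pathway gene with the largest ratio below, held none either. Both strands were searched. CACGTG was found in 6.02% of 32851 windows of the same length, at least 2 copies in 0.429% and at least 4 copies in 0.0213% (7 windows). TCACGTGA, which contains the core, was in 0.785% of windows and, among the 6, only in that of Ctsd. The antioxidant response core TGACNNNGC, which NRF2 binds, was in 10.2% of windows and, among the 6, only in that of Ctsd, beginning 62 and 47 bases upstream. These are letter matches, not measured binding.

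The libraries held 11588 dTAG13 cells with 91808969 UMIs (distinct tagged transcripts) and 17878 DMSO cells with 117189816 UMIs, once cells below 500 detected genes or above 10% mitochondrial UMIs had been dropped. Median depth was 7072.5 UMIs per dTAG13 cell and 6014 per DMSO cell. The cells of both libraries carried pluripotency transcripts, with the 8 listed markers summing to 2167 CPM (UMIs per 1000000) with dTAG13 and 2471 CPM with DMSO. Macrophages, which are rich in lysosomes, were near absent by their markers: 8 of 10 were under 1 CPM in both libraries, and Cd68, a lysosomal membrane protein, gave most of the sum of 14.0 CPM with dTAG13 and 9.27 CPM with DMSO. All 8 feeder fibroblast markers were under 1 CPM, and Col3a1, Lum and Postn had no UMI. Trophoblast markers summed to 183 CPM with dTAG13 and 72.0 CPM with DMSO, and extraembryonic endoderm markers to 43.4 CPM with dTAG13 and 29.7 CPM with DMSO. The part of these in the results was not tested, except that values without the keratin-rich clusters 7 and 8 are given below. Cluster 10, with Plac1, Hand1, Krt8 and Krt18 among its leading genes, was kept in those values. The libraries shared 63 barcodes.

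Among the 9 genes, 8 were higher in the dTAG13 library and Map1lc3b was lower. Ctsd, Sqstm1 and Lamp1 were at least 1.5-fold higher, and 0 of the 9 were at least 1.5-fold lower. All 9 passed the minimum mean of 5 CPM used for the comparison across genes. Of 8443 genes above that minimum, 12.8% were at least 1.5-fold higher with dTAG13 and 4.89% at least 1.5-fold lower, so that 3 of 9 stands beside a background of about 1 gene in 8. The count rests on narrow margins: Lamp1 lay at the limit, and without 1 cluster of keratin-rich dTAG13 cells, described below, Ctsd was the 1 member past it. The median log2 ratio was 0.50 over the 9 genes and 0.09 over all 8443, of which 60.0% had a ratio above 1. The genes were proposed with earlier results of these data known, so this count describes them and is not evidence for the group.

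**Figure D1:**
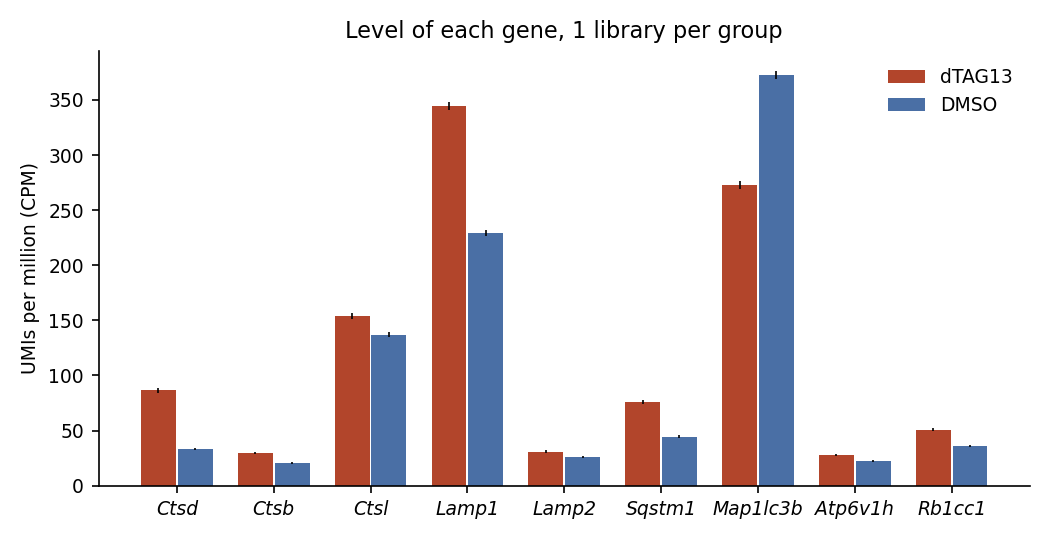
CPM of each gene in the dTAG13 library (red) and the DMSO library (blue), with bars for 1 library each and black lines for the 95% Poisson counting interval. Ctsd stands at 86.4 CPM with dTAG13 against 33.3 CPM with DMSO, and Map1lc3b is the gene whose blue bar is the taller, at 273 CPM with dTAG13 against 372 CPM with DMSO.

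The proteases differed among themselves. Ctsd (ENSMUSG00000007891), the aspartic protease cathepsin D, had 7930 UMIs and 86.4 CPM (84.5 to 88.3) in the dTAG13 library, against 3899 UMIs and 33.3 CPM (32.2 to 34.3) in the DMSO library. The ratio was 2.60 (2.50 to 2.70), and 255 of the 8443 genes (3.02%) had a higher one. Ctsb (ENSMUSG00000021939), the cysteine protease cathepsin B, was at 29.5 CPM with dTAG13 and 20.3 CPM with DMSO, a ratio of 1.45 (1.37 to 1.53), just outside the 1.5-fold limit. For Ctsl (ENSMUSG00000021477), the cysteine protease cathepsin L, the levels were 154 CPM with dTAG13 and 137 CPM with DMSO. Its ratio of 1.13 (1.10 to 1.15) was exceeded by 40.9% of genes, so it lay near the middle of all genes.

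The membrane and proton pump genes among the members were all higher with dTAG13, with ratios below that of Ctsd. Lamp1 (ENSMUSG00000031447), a main glycoprotein of the lysosomal membrane, had 31625 UMIs and 344 CPM (341 to 348) with dTAG13, against 26852 UMIs and 229 CPM (226 to 232) with DMSO. This is a ratio of 1.503 (1.48 to 1.53), at the limit itself, which its interval spans. Lamp2 (ENSMUSG00000016534), the partner glycoprotein that also serves in chaperone-mediated autophagy, was at 30.9 CPM with dTAG13 and 25.8 CPM with DMSO (ratio 1.2, 1.14 to 1.26). Atp6v1h (ENSMUSG00000033793), the regulatory H subunit of the V-ATPase's cytoplasmic sector, was at 27.6 CPM with dTAG13 and 22.6 CPM with DMSO (1.22, 1.15 to 1.29). About 3 in 10 genes had higher ratios than these, 32.0% for Lamp2 and 29.5% for Atp6v1h.

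Autophagy genes went in both directions. Sqstm1 (ENSMUSG00000015837), which encodes the receptor p62, had 6968 UMIs and 75.9 CPM (74.1 to 77.7) in dTAG13 cells, against 5217 UMIs and 44.5 CPM (43.3 to 45.7) in DMSO cells, a ratio of 1.70 (1.64 to 1.77). Rb1cc1 (ENSMUSG00000025907), the FIP200 scaffold of the ULK1 complex, was at 50.9 CPM with dTAG13 and 36.1 CPM with DMSO (1.41, 1.35 to 1.47). Map1lc3b (ENSMUSG00000031812), which encodes LC3B, had 25063 UMIs and 273 CPM (270 to 276) in dTAG13 cells, against 43630 UMIs and 372 CPM (369 to 376) in DMSO cells. Its ratio was 0.733 (0.722 to 0.745), and 91.6% of genes had a higher one. LC3B and p62 act at neighbouring steps, and their transcripts differed between the libraries in opposite directions.

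The wider pathway lay near the background of all genes. Of 171 other genes in 15 lists of lysosomal and autophagy parts, 170 were in the files and 122 had a mean of at least 5 CPM. Of these 10 (8.20%) were at least 1.5-fold higher with dTAG13 and 1 was at least 1.5-fold lower, against 12.8% and 4.89% of all genes. The median log2 ratio was 0.14, close to the 0.09 of all genes. With TMM scaling the counts were 7 higher (5.74%) and 9 lower (7.38%), against 9.48% and 7.75% of all genes under that scaling. With median-of-ratios scaling they were 8 higher (6.67%) and 6 lower (5.0%), against 10.1% and 6.90% of all genes.

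Hydrolases included the largest ratios. Man2b1, the lysosomal alpha-mannosidase, was at 111 CPM with dTAG13 and 22.7 CPM with DMSO, a ratio of 4.88 (4.68 to 5.10). Gaa, the acid alpha-glucosidase, was at 15.3 CPM with dTAG13 and 6.43 CPM with DMSO (2.37), and Fuca1, the alpha-fucosidase, at 66.9 CPM with dTAG13 and 44.0 CPM with DMSO (1.52). These 3 were the only ones past 1.5-fold among 17 measured glycan and lipid hydrolases (17.6%, against 12.8% of all genes). The median log2 ratio of the 17 was 0.01, and Npc2, a cholesterol carrier, was at 146 CPM with dTAG13 and 178 CPM with DMSO. Of 5 further proteases measured, Tpp1, a tripeptidyl peptidase, had a ratio of 1.94 (1.83 to 2.06), and the other 4 had ratios below 1, with Scpep1 at 0.810 and Ctsz at 0.903. Cst3, a secreted inhibitor of cysteine cathepsins, was at 128 CPM with dTAG13 and 186 CPM with DMSO, whereas Cstb, the inhibitor inside cells, had a ratio of 1.10.

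Among membrane proteins and pump subunits 1 gene of each list passed the fold upward. In lists this short that is not set apart from the 12.8% of all genes. Of 11 measured membrane proteins 9 had ratios above 1, where 60.0% of all genes did, with a median log2 ratio of 0.46. The 1 past 1.5-fold (9.09%, against 12.8% of all genes) was the Batten disease gene Cln3 (1.63). Tmem192 had a ratio of 0.703 and Cd63, a tetraspanin, was level at 1.04. Of 15 measured V-ATPase genes 13 had ratios above 1, with a median of 0.33, and 1 passed 1.5-fold (6.67%, against 12.8% of all genes). Atp6v1a, the catalytic subunit, was at 85.8 CPM with dTAG13 and 48.1 CPM with DMSO (1.78, 1.72 to 1.84), and Atp6v0c, the proton-carrying ring subunit, at 288 CPM with dTAG13 and 339 CPM with DMSO. In mannose 6-phosphate sorting, which carries hydrolases to the lysosome, 1 of 7 genes was past the fold (14.3%, against 12.8% of all genes). This was the receptor gene Igf2r, at 20.2 CPM with dTAG13 and 11.2 CPM with DMSO.

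For autophagy itself, few genes passed the fold, beside 12.8% of all genes higher and 4.89% lower. The lists are short, so a count of 0 in them is not a result about autophagy. The 3 measured relatives of LC3B split: Gabarap had a ratio of 1.27, Gabarapl2 of 0.777 and Map1lc3a of 0.695. Partners of Rb1cc1 went both ways and stayed inside 1.5-fold, at 1.21 for the kinase gene Ulk1, 0.945 for Atg13 and 0.841 for Atg101. The class III PI3 kinase complex makes the lipid signal on the forming membrane. Of its 7 measured genes 6 had ratios above 1, where 60.0% of all genes did, and 0 passed 1.5-fold. Uvrag was at 1.40 and Becn1 at 1.23. No gene of LC3 conjugation (6 measured), of the autophagy receptors (11 measured) or of lysosomal nutrient signalling (13 measured) passed the fold in either direction. Other genes past it were Atg2b (1.75), a lipid carrier, and Vps33a (1.55), of the fusion machinery, both chosen after their values were seen, and Tmem41b (0.666), a lipid scramblase and the single lower gene. Tmem41b lay at the limit itself, which its interval (0.631 to 0.703) spans. Of the lysosome and autophagy genes linked to p53, Sesn2, also 1 of the 18 p53 targets used below to order cells, had a ratio of 2.25, and Sesn1 (0.99) and Prkab1 (1.06) were level. Dram1, the p53 target named for autophagy, was at 0.316 CPM with dTAG13 and 0.358 CPM with DMSO (29 and 42 UMIs), chosen after its values were seen.

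**Figure D2:**
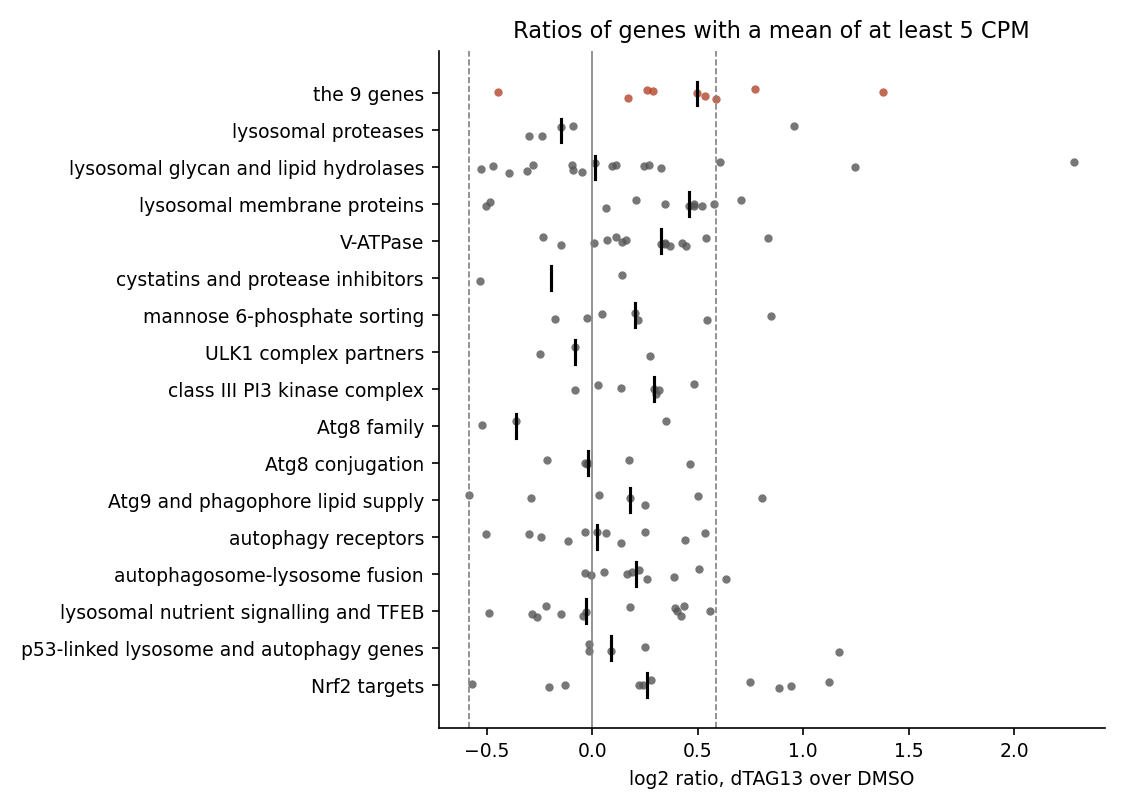
Log2 ratio of dTAG13 over DMSO (x axis) for each gene with a mean of at least 5 CPM, by list; black ticks are list medians and dashed lines mark 1.5-fold. The 9 genes (red) spread from Map1lc3b at -0.45 to Ctsd at 1.38, and Man2b1 is the point farthest right, at 2.29.

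Per cell, counts were low. Each cell was thinned to 4000 UMIs, which left out 868 dTAG13 and 1970 DMSO cells that were shallower. Most thinned cells held no UMI of 7 of the 9 genes. Without thinning, Ctsl, among these 7, was seen in 58.8% of dTAG13 and 52.7% of DMSO cells. Mean Ctsd was 0.336 UMIs in 10720 dTAG13 cells and 0.131 in 15908 DMSO cells. At least 1 Ctsd UMI was seen in 27.5% (26.6 to 28.3) of dTAG13 cells and 12.0% (11.5 to 12.5) of DMSO cells, or 44.3% of dTAG13 and 18.6% of DMSO cells without thinning. All cells have lysosomes, so no cell type could serve to measure how far free RNA adds to these shares. At least 2 UMIs were seen in 5.14% of dTAG13 cells and 1.02% of DMSO cells.

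Lamp1 averaged 1.45 UMIs per thinned dTAG13 cell and 0.923 per DMSO cell, and Map1lc3b 1.11 UMIs per dTAG13 cell and 1.499 per DMSO cell. A Map1lc3b UMI was found in 64.3% of thinned dTAG13 cells and 74.9% of thinned DMSO cells. Without thinning, the shares were 81.6% of dTAG13 and 85.5% of DMSO cells. Sqstm1 averaged 0.314 UMIs per dTAG13 cell and 0.174 per DMSO cell and was the most uneven of the 9 in the dTAG13 library. Its variance over its mean was 1.42 in dTAG13 cells and 1.08 in DMSO cells, where 1 is the value of pure counting noise. For Atp6v1h the same measure was 1.01 in dTAG13 and 1.02 in DMSO cells, and for Rb1cc1 1.04 in dTAG13 and 1.03 in DMSO cells. Cells with 5 or more Sqstm1 UMIs numbered 19 of 10720 with dTAG13 and 1 of 15908 with DMSO.

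**Figure D3:**
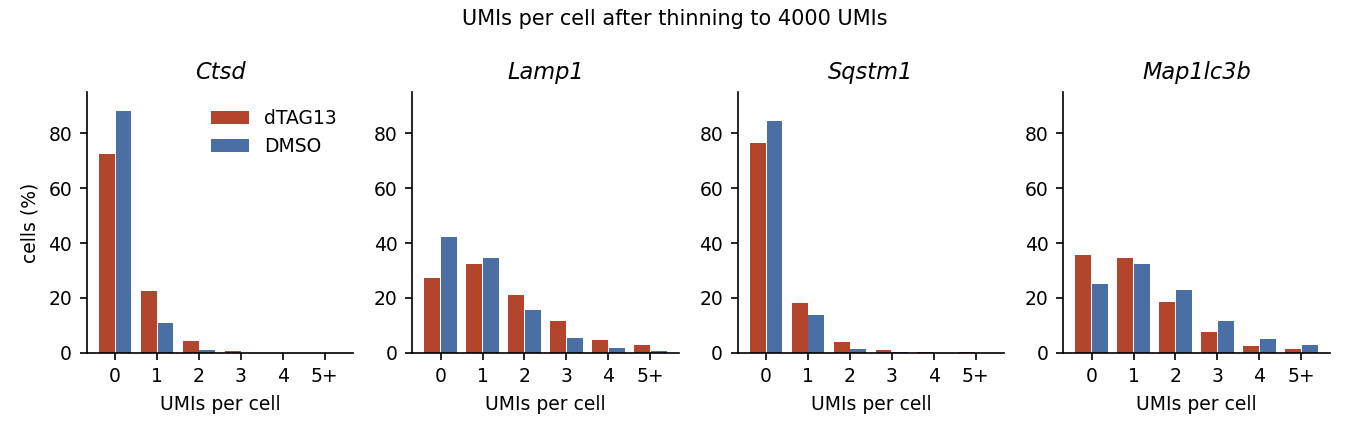
Share of cells (y axis, percent) with 0 to 5 or more UMIs of 4 genes after thinning every cell to 4000 UMIs, for dTAG13 (red, left) and DMSO (blue, right). Cells without a Ctsd UMI make up 72.5% with dTAG13 and 88.0% with DMSO, and for Map1lc3b the order is the reverse, at 35.7% with dTAG13 and 25.1% with DMSO.

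Summed over all 9 genes, thinned cells had a median of 4 UMIs with dTAG13 and 3 with DMSO. More than 7 UMIs, the 90th percentile of DMSO cells, were found in 11.4% (10.8 to 12.1) of dTAG13 cells and 5.35% (5.005 to 5.71) of DMSO cells. Without Map1lc3b, the limit was 4 UMIs and the shares were 23.5% of dTAG13 cells and 8.61% of DMSO cells. The 3 genes past 1.5-fold, Ctsd, Lamp1 and Sqstm1, were picked on these same cells, and together had a median of 2 UMIs in thinned dTAG13 cells and 1 in thinned DMSO cells (without thinning, 3 in dTAG13 and 2 in DMSO cells). More than 3 UMIs were found in 17.7% (17.0 to 18.5) of dTAG13 cells and 4.96% (4.63 to 5.31) of DMSO cells. Between single genes the correlation over cells was weak. The highest of 36 Pearson values was 0.13 within the dTAG13 library, for Lamp1 and Sqstm1, and 0.04 within the DMSO library, for the same genes, and at such low counts these values say little.

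To see in which cells the transcripts lay, the cells of both libraries were clustered on variable genes from which the lysosome and autophagy genes had been left out. The 12 clusters largely separated the libraries, and only 7 held at least 50 cells of each. Clusters 0, 1 and 2, led by Mras, Rhox9 and Sfrp1, were mostly DMSO cells (149, 204 and 171 dTAG13 cells with 5420, 4881 and 4904 DMSO cells). Clusters 3, 4 and 5 were mostly dTAG13 cells (3492, 2741 and 2470 dTAG13 cells with 399, 671 and 181 DMSO cells), led by histone genes, by Ms4a10 and Sdc4, and by Anxa8 and Neurod1. Clusters 7 and 8, with 1161 and 851 dTAG13 cells but 16 and 15 DMSO cells, shared the keratin genes Krt8, Krt18 and Krt19 among their leading genes.

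Cluster 7, led by Krt19 and Sct, held the highest Ctsd and Sqstm1 of any cluster of at least 100 dTAG13 cells. Sqstm1 reached 199 CPM (188 to 209) in its dTAG13 cells and 102 CPM in those of cluster 8, compared with 45.0 to 80.8 CPM in dTAG13 cells of clusters 0 to 6. Ctsd was at 147 CPM (138 to 157) in cluster 7, 109 CPM in cluster 8 and 43.3 to 88.0 CPM in clusters 0 to 6. Ctsb, at 55.4 CPM in cluster 7 and 32.0 CPM in cluster 8, and Lamp1, at 479 and 355 CPM, were also highest in cluster 7. Map1lc3b was not, at 313 and 247 CPM in clusters 7 and 8, within the 246 to 402 CPM of dTAG13 cells of clusters 0 to 6. The 16 DMSO cells of cluster 7 held 14 Sqstm1 UMIs, 185 CPM with an interval of 101 to 310.5. Krt8 and Krt18 also led cluster 10, with Plac1 and Hand1 and mostly DMSO cells, in whose 83 DMSO cells Sqstm1 was at 146 CPM (116 to 182) and Ctsd at 111 CPM (84.7 to 143). In the 15 DMSO cells of cluster 8, Sqstm1 was at 84.2 CPM (38.5 to 160) and Ctsd at 56.1 CPM (20.6 to 122), intervals too wide to place them. High Sqstm1 and Ctsd thus appeared in keratin-rich cells of both libraries, though not measurably in the DMSO cells of cluster 8.

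Without cluster 7 the ratio of Sqstm1 was 1.48 (1.42 to 1.54) and that of Lamp1 1.45 (1.43 to 1.48), so that Ctsd alone, at 2.45 (2.36 to 2.55), remained past 1.5-fold among the 9. Leaving out cluster 8 as well gave 1.38 for Sqstm1, 1.44 for Lamp1 and 2.35 for Ctsd. Ctsl was then nearly level, at 1.03 (1.001 to 1.05). Ctsd and Sqstm1 both kept a ratio above 1 without these keratin-rich cells, and both were smaller than with them.

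Within the 7 mixed clusters, differences between the libraries were smaller. Ctsd was higher in dTAG13 cells in all 7, with ratios between 1.31 in cluster 5 and 1.70 in cluster 2 and intervals that stayed above 1. It was past 1.5-fold in clusters 0, 1, 2 and 6, where 9.99%, 8.49%, 8.02% and 9.15% of genes were, and short of it in clusters 3, 4 and 5, where 5.2%, 10.4% and 9.89% were past it. In cluster 1, for example, Ctsd was at 58.2 CPM (46.9 to 71.3) in dTAG13 cells and 37.1 CPM (35.0 to 39.3) in DMSO cells. Lamp1 ratios ran between 1.10 and 1.42 and Ctsl ratios between 1.13 and 1.43, each with an interval above 1 in 6 of 7 clusters. Map1lc3b was lower in all 7, at 0.727 to 0.949, with 5 intervals under 1. Sqstm1 ratios lay between 0.930 and 1.2, and 1 of 7 intervals excluded 1, and the mean log2 ratio over the 7 clusters was 0.14, against 0.77 for the whole libraries. For Ctsd that mean was 0.59, against 1.38 for the whole libraries, so for both genes the difference within clusters was the smaller one. Lamp2 went both ways, at 0.758 in cluster 5 and 1.23 in cluster 2. Over the 7 clusters the mean log2 ratio of Lamp2 was -0.04 (a ratio of 0.970). Summed over clusters 3, 4, 6, 10 and 11, in each of which neither library held 90% of the cells, Ctsd stood at 1.64 and Sqstm1 at 1.06. Ctsl stood at 0.888 in that sum, although its ratios within clusters 3, 4 and 6 were 1.13, 1.15 and 1.43. Cluster 6, where Ctsl was high, supplied 4.38% of the dTAG13 and 47.9% of the DMSO cells of the sum, and clusters 3 and 4 supplied 53.1% and 41.7% of the dTAG13 cells. Since clusters were drawn from expression, cells that fall in a cluster of the other library are those that resemble it, and doublets and free RNA in them were not tested.

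Cluster 6, led by Ebf1 and Sox11, was the mixed cluster with the most Ctsl, at 253 CPM in its 288 dTAG13 cells and 177 CPM in its 1104 DMSO cells. The ratio there was 1.43 (1.30 to 1.57). Ctsb had its highest within-cluster ratio in the same place, 1.65 (1.2 to 2.24). The Zscan4d-rich cluster 11 had too few cells for a ratio, 38 with dTAG13 and 46 with DMSO. Its Map1lc3b was at 461 CPM with dTAG13 and 531 CPM with DMSO.

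**Figure D4:**
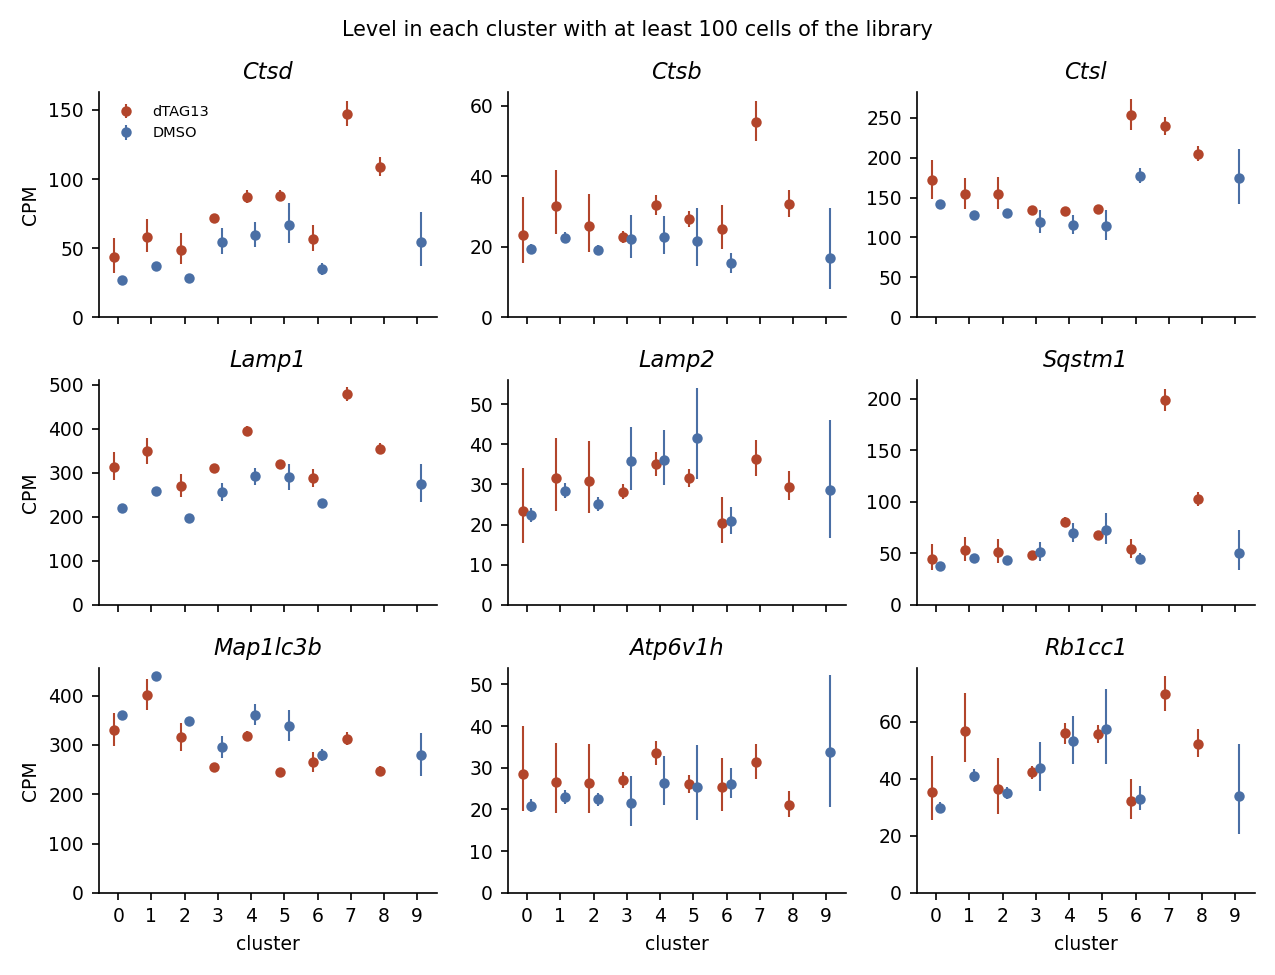
CPM of each gene (y axis) by cluster (x axis) for dTAG13 cells (red) and DMSO cells (blue), with 95% Poisson intervals, where the cluster held at least 100 cells of the library. The red points of cluster 7 stand at 147 CPM for Ctsd and 199 CPM for Sqstm1, above clusters 0 to 6.

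Within cell cycle calls Ctsd, Sqstm1 and Lamp1 were higher and Map1lc3b lower under each call. The calls are transcript scores, and whether they match the true phase was not tested. Most cells of both libraries were called G2 and M, so that group is close to the whole libraries. In cells called G2 and M (8889 dTAG13 and 14989 DMSO), Ctsd had a ratio of 2.51, Sqstm1 of 1.54, Lamp1 of 1.47 and Map1lc3b of 0.715, with 12.3% of genes at least 1.5-fold higher. Among cells called S (1193 dTAG13 and 2792 DMSO), the ratios were 2.08 for Ctsd, 1.17 (1.04 to 1.32) for Sqstm1, 1.30 for Lamp1 and 0.715 for Map1lc3b, with 9.61% of genes past the fold. Cells called G1 (1506 dTAG13 and 97 DMSO) gave 1.48 (1.04 to 2.17) for Ctsd, 1.98 (1.39 to 2.93) for Sqstm1 and 1.87 (1.01 to 3.93) for Ctsb, where 24.2% of genes were at least 1.5-fold higher. Map1lc3b was at 0.641 (0.554 to 0.746) in G1 cells, past the fold downward, where 14.5% of genes were. Lamp2 and Rb1cc1 were on the other side of 1 in G1, at 0.926 (0.562 to 1.64) and 0.916 (0.623 to 1.40). Median depth in G1 was 4938 UMIs in dTAG13 cells and 3460 in the few DMSO cells.

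Transcripts of p53 targets differ strongly between these libraries, with Mdm2 at 364 CPM under dTAG13 and 45.3 CPM under DMSO, so the genes were also read against them cell by cell. Thinned cells were put in 4 ranges by their summed UMIs of 18 p53 targets, with limits at the quartiles of dTAG13 cells. The ranges held 3039, 3200, 2400 and 2081 dTAG13 cells and 14992, 755, 132 and 29 DMSO cells. In dTAG13 cells Ctsd was at 67.4, 84.0, 88.0 and 104 CPM in the ranges of 0 to 5, 6 to 8, 9 to 11 and 12 or more p53 target UMIs. The highest range over the lowest was 1.54 (1.40 to 1.70). In DMSO cells Ctsd was at 31.5 CPM in 14992 cells of the lowest range, 47.4 CPM in 755 cells of the next and 83.3 CPM in 132 cells of the range of 9 to 11. Both libraries thus showed more Ctsd where p53 target UMIs were more numerous.

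At 0 to 5 p53 target UMIs the ratio of dTAG13 over DMSO was 2.14 (1.97 to 2.32) for Ctsd, 1.77 (1.49 to 2.13) at 6 to 8, 1.06 (0.780 to 1.46) at 9 to 11 and 1.21 (0.652 to 2.52) at 12 or more. For Sqstm1 the values were 1.52 (1.40 to 1.65), 1.18 (1.01 to 1.39), 1.06 (0.774 to 1.49) and 1.99 (0.909 to 5.43) in the same ranges. The highest range held 29 DMSO cells, with 10 Ctsd and 6 Sqstm1 UMIs, so its ratios are wide and show no course. Lamp1 had 1.45, 1.38, 1.26 and 1.39 and Map1lc3b 0.809, 0.857, 0.753 and 0.852 over the 4 ranges. Sqstm1 was at 64.5 CPM in the lowest and 103 CPM in the highest range of dTAG13 cells, and Lamp1 at 331 CPM in the lowest and 408 CPM in the highest. Map1lc3b ran the other way in these dTAG13 cells, at 306 CPM in the lowest and 264 CPM in the highest, and Ctsl was near level, at 157 CPM in the lowest and 150 CPM in the highest. Man2b1 had the steepest course of the lysosomal genes compared, at 69.1 CPM in the lowest and 180 CPM in the highest range of dTAG13 cells. A range of a count is not a cell type. The lowest range of dTAG13 cells also had Mdm2 at 135 CPM, against 34.1 CPM in DMSO cells, so cells of 1 range still differed in p53 target level between the libraries.

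**Figure D5:**
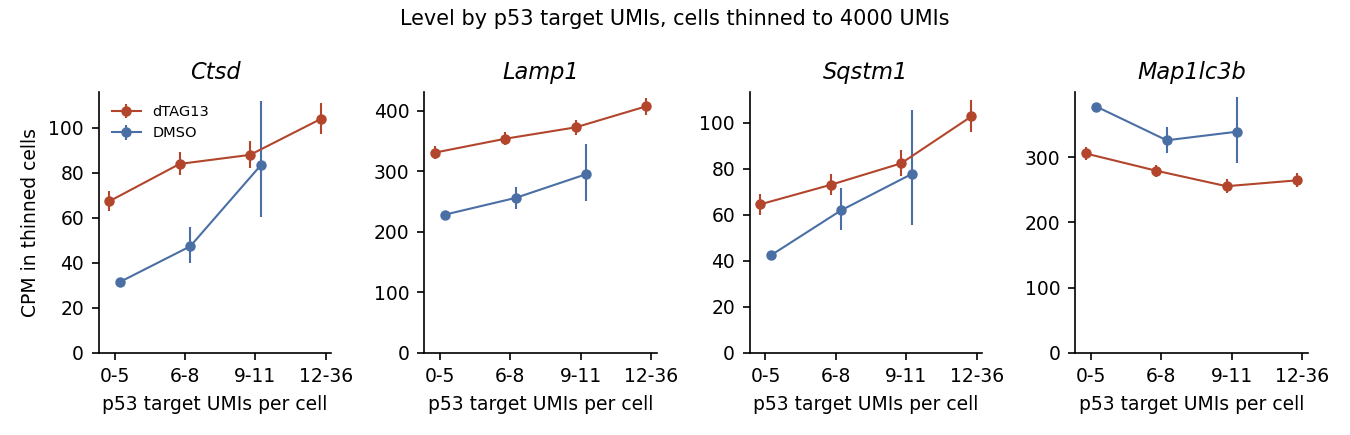
CPM of 4 genes (y axis) in thinned cells by the number of p53 target UMIs per cell (x axis), for dTAG13 (red) and DMSO (blue), with 95% Poisson intervals and only points with at least 100 cells. The Ctsd curves stand at 67.4 CPM (dTAG13) and 31.5 CPM (DMSO) on the left and at 88.0 CPM (dTAG13) and 83.3 CPM (DMSO) in the range of 9 to 11.

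Over 17 sums of a cluster and a library with at least 100 cells, the 5 genes of 4709 whose level followed Ctsd most closely were Ddit4, Map4k5, Trp53inp1, Tnks2 and Ube4b, with Pearson values between 0.96 and 0.97 on log2(CPM + 1). Ddit4, an inhibitor of mTORC1, and Trp53inp1 are known p53 targets, and Trp53inp1 is also 1 of the 18 genes that set the ranges above. For Sqstm1 they were Cdh1, Gabarap, Ndfip1, Sct and Pigp, between 0.89 and 0.93. Within the set, Ctsd followed Lamp1 (0.90), Sqstm1 (0.88), Rb1cc1 (0.81) and Ctsb (0.80) and did not follow Map1lc3b (-0.45). Values were lower for Lamp2 (0.60), Atp6v1h (0.41) and Ctsl (0.31). The 17 sums come from only 2 libraries, so these values mix differences between libraries with those between clusters and carry no p.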

How the data were processed

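The data are 3′ single-cell RNA libraries, 1 each for dTAG13 and DMSO. The deposited UMI counts come from the authors' Cell Ranger run, whose version the file headers give as 8.0.1. The submitters' processing notes also list Seurat 5.0.1, R 4.3.2 and the build mm10, with no role. The barcode filter and the annotation behind the counts are not given in the sources used here. Symbols with more than 1 identifier (26) were summed.

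Cells below 500 detected genes or above 10% mitochondrial UMIs were dropped. No doublet caller was run and none were removed. UMIs were summed per library and scaled to CPM. CPM has exact Poisson intervals, ratios exact conditional binomial ones and shares exact Clopper-Pearson ones, all at 95% and all for counting error only. Genes with a mean of at least 5 CPM over both libraries entered comparisons. Called means at least 1.5-fold, since 1 library per group allows no test. The calculation was tested on simulated data.

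Cells were thinned without replacement to 4000 UMIs. Clusters came from scanpy 1.11.5 (10000 UMIs per cell, log scale, 2000 variable genes, 30 components, 15 neighbours, leidenalg 0.10.2, resolution 1) and phases from its cell cycle score. The TMM scaling alternative used edgeR 4.0.16. Promoters came from RefSeq (GRCm38.p6).

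From each list the gene with the highest mean CPM and up to 3 with the largest absolute log2 ratio at a mean of at least 10 CPM could be named. The members and lists were chosen with earlier results of these data known. Tmem55b was not found under that symbol.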

Additional observations from a re-analysis of the deposited data

How the results depend on the processing

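The direction of 7 members held under all 14 alternatives. Ctsd stayed past 1.5-fold in all of them (1.51 to 2.73), and Map1lc3b stayed below 1 (0.674 to 0.887). Cells called G1, with only 97 DMSO cells, were not among the 14. There Ctsd was at 1.48 (1.04 to 2.17), short of the fold, and Rb1cc1 was below 1, at 0.916 (0.623 to 1.40). Ctsl was reversed, at 0.888, without clusters of which 1 library held at least 90%; its ratio was above 1 within each of the 3 largest clusters that remained (3, 4 and 6), whose shares of the cells differed between the libraries. Lamp2 was reversed, at 0.970, in the mean of within-cluster log2 ratios, and the cause was not tested. Members past 1.5-fold numbered 3 as reported and 1 in cells called S, without the clusters of at least 90%, without cluster 7, without clusters 7 and 8, and in the mean of within-cluster log2 ratios. In each of these the 1 was Ctsd. The number was 2 under median-of-ratios scaling, TMM scaling and in cells called G2 and M, and 3 to 4 under the others. TMM lowered all log2 ratios by 0.12 and median-of-ratios scaling by 0.09, so a fall of Lamp1 below the limit follows from the scaling. Of the pathway genes, 10 of 122 were past the fold upward, 5 of 57 (8.77%) at a mean of at least 20 CPM, 22 of 168 (13.1%) with no minimum beyond 1 UMI, 15 of 123 (12.2%) with each cell's own CPM and 3 of 122 (2.46%) at a fold of 2. The shares of all genes were 8.75%, 25.2%, 14.0% and 5.38% under these 4 settings. The number lower was 1 as reported, 6 under median-of-ratios and 9 under TMM scaling, 3 in cells called G2 and M, 3 without the clusters of at least 90%, and 0 with each cell's own CPM, with thinned cells, without shared barcodes and at a fold of 2. The alternatives without clusters and without shared barcodes were chosen after seeing the data. No paired analysis was possible because each treatment is 1 library. Depth limits the clusters: under 50 cells of a library no ratio is given.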

Other observations

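NRF2 is the transcription factor that p62 can release by binding its inhibitor KEAP1. On a list of NRF2 targets, 4 of 10 measured genes were past 1.5-fold, all with more UMIs per 1000000 under dTAG13. Past it downward were 0, and the shares of all genes were 12.8% and 4.89%. The 10 also held Keap1 (0.866) and Nfe2l2 (0.914), the gene of NRF2 itself. Hmox1, the heme oxygenase, was at 101 CPM with dTAG13 and 46.5 CPM with DMSO, a ratio of 2.17 (2.10 to 2.25). Txnrd1, a thioredoxin reductase, was at 324 CPM with dTAG13 and 169 CPM with DMSO, and Gclc, of glutathione synthesis, had a ratio of 1.85. Srxn1, the sulfiredoxin gene, had 1.68 and was chosen after its value was seen. Nqo1 (1.17), Gclm (1.18) and G6pdx (1.21) stayed well inside the fold and were also chosen after their values were seen. Prdx1, the peroxiredoxin also on the list, went the other way, at 1951 CPM with dTAG13 and 2898 CPM with DMSO. Its ratio of 0.673 lay just inside the 1.5-fold limit. Median-of-ratios and TMM scaling lower all log2 ratios, by 0.09 and 0.12, so the 0 rests on the scaling. The median log2 ratio of the list was 0.26, against 0.09 over all genes.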
